A study of Mus musculus with 94 samples.

Results

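The 10 genes described here encode transcription factors that direct granulocyte and mast cell fates. They are Gata2, Gata1, Zfpm1, Cebpa, Cebpb, Runx1, Spi1, Irf8, Gfi1 and Mitf. They were listed by name, not by their values, and each was found by its symbol among the 46078 mouse gene identifiers of the count table, so all 10 are covered. Their detection, their level and their joint presence in single cells were measured in basophils from bone marrow.

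GATA2 and GATA1 are zinc finger factors that work with the cofactor FOG1, the product of Zfpm1, in erythroid and megakaryocytic cells, and both also act in mast cells. C/EBPα and PU.1, the product of Spi1, drive granulocyte and monocyte programmes, and GATA1 and PU.1 are known to restrain each other. In this branch of blood formation GATA2 together with C/EBPα is associated with basophils, whereas MITF is associated with mast cells and represses, and is repressed by, C/EBPα. GFI1 and IRF8 form another opposed pair, with GFI1 favouring neutrophils and IRF8 monocytes, dendritic cells and, through early progenitors, basophils.

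The study sequenced 94 single basophils, taken from bone marrow of female C57BL/6 mice, 3 in number. Both gates held live cells without lineage markers and Sca1 that carried FcεRI, the IgE receptor. One gate was CD34-positive and the other CD34-negative, with 47 cells each, CD34 being a surface protein of progenitors. No genetic change or treatment is given for any cell, and the labels tie no cell to its mouse, so a gate is treated as a single sample. The gates are therefore described without a test, and the intervals below cover counting error only.

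After 1 shallow cell per gate was set aside, 46 cells per gate remained. Gene reads per cell ranged from 262944 to 938322 in CD34-negative and from 374011 to 1154738 in CD34-positive cells. Levels are CPM, the usual count of a gene's reads scaled to the gene reads of a cell or of a whole gate. Detection means at least 1 read after 200000 gene reads were drawn from each cell, with exact Clopper-Pearson 95% intervals. A log2 fold is CD34-positive over CD34-negative on summed CPM plus a pseudocount of 1 CPM, with a 95% counting interval from exact Poisson limits. The sort marker Cd34 had 1799 reads in the CD34-positive gate and 7 in the other. The median number of genes with a read per cell, before drawing, was 7511.5 in the CD34-positive and 5303.5 in the CD34-negative gate. Gene reads per ERCC read, a measure of RNA per cell against spiked RNA, were also higher in CD34-positive cells, and folds scaled by ERCC reads are given where they alter a direction.

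CD34-negative cell 10 stood apart and went against its label. It had 1 read of Gata2, or 3.80 CPM, whereas the other 45 cells of its gate ranged from 929 to 5556 CPM. It had no read of Cebpa, Cebpb, Gata1, Gfi1 or Zfpm1. Its Fcer1a and Ms4a2 levels, 2 subunits of the receptor used in the sort, were 7.61 CPM each, below every other CD34-negative cell (at least 223 and 481 CPM). The 9 basophil markers summed to 232 CPM in it, against 6127 CPM or more in the others. It carried 12273 CPM of Cd74, the MHC class II invariant chain, and 966 CPM of Csf1r, the macrophage growth factor receptor. In the other 45 cells Cd74 reached at most 2.41 CPM and Csf1r 147 CPM. Of 6 monocyte and dendritic markers it had reads of Csf1r, Ccr2 and Itgax and none of Cx3cr1, Siglech and Flt3. C1qa, C1qb, C1qc and H2-Aa, picked after their values were seen, were at 1833, 3119, 1567 and 3548 CPM, and at or below 1.78 CPM in every other CD34-negative cell. Its median correlation with the rest of its gate, across 12460 genes read in 10 or more kept cells, was 0.30, the lowest of the gate (next lowest 0.37). Results that rest on this cell are given with and without it.

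The 10 genes fell into 2 ranges of detection. Gata2 and Runx1 were found in all 92 kept cells, Cebpa in 45 of 46 CD34-negative and all 46 CD34-positive cells, and Spi1 in 43 of 46 in each gate. Gata1 and Cebpb were found in most cells, whereas Zfpm1, Gfi1, Irf8 and Mitf were found in 14 or fewer cells of a gate. CD34-negative cells held 5.67 ± 0.871 of the 10 (SD over 46 cells, range 4 to 7), and CD34-positive cells 6.37 ± 0.903 (SD over 46 cells, range 5 to 8). The difference of 0.70 was smaller than the cell-to-cell SD in either gate. It was smaller still when 10 drawn reads of a gene were asked.

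**Figure D1:**
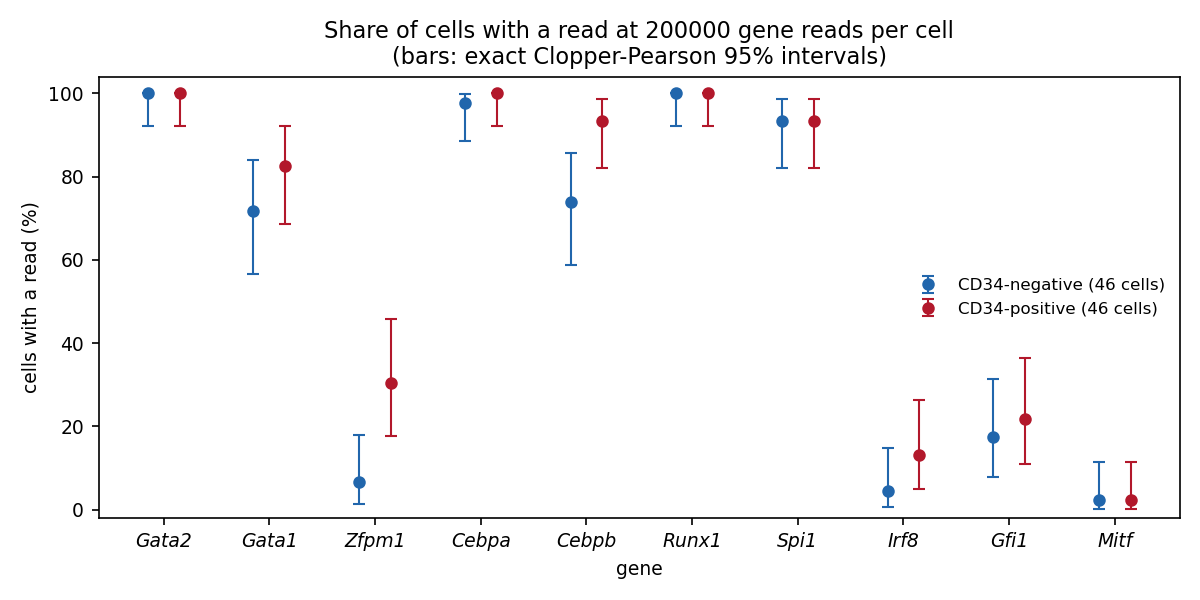
Share of kept cells with a read of each gene (y axis, percent) at 200000 gene reads per cell, for 46 CD34-negative (blue) and 46 CD34-positive (red) cells; bars are exact Clopper-Pearson 95% intervals. Gata2, Runx1, Cebpa and Spi1 lie above 93% in both gates, Zfpm1 is at 6.52% and 30.4%, and the intervals of the gates overlap for every gene.

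Of the 10 genes, 9 had reads in at least 10 kept cells and stood among the 12460 genes compared; Mitf did not. One of these 9, Zfpm1, had a log2 fold of at least 1, a size reached by 21.7% of all genes compared. One, Spi1, had a log2 fold of -1 or less, as had 10.1% of all genes. Detection intervals separated the gates for 0 of the 9 in either direction, whereas they did so for 19.3% of all genes with the CD34-positive gate higher and for 0.562% with it lower. The median log2 fold was -0.06 over the 10 genes and 0.06 over the 9 compared, beside 0.19 for all genes compared. On ERCC scaling these medians were 0.90 and 1.06, and 9 of the 10 genes then lay above 0, Spi1 being the exception. Without CD34-negative cell 10, Irf8 joined Zfpm1 above a log2 fold of 1, and the median of the 10 was 0.15, which stayed the same with Mitf, then at 0 in that gate, placed at its lower bound.

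**Figure D2:**
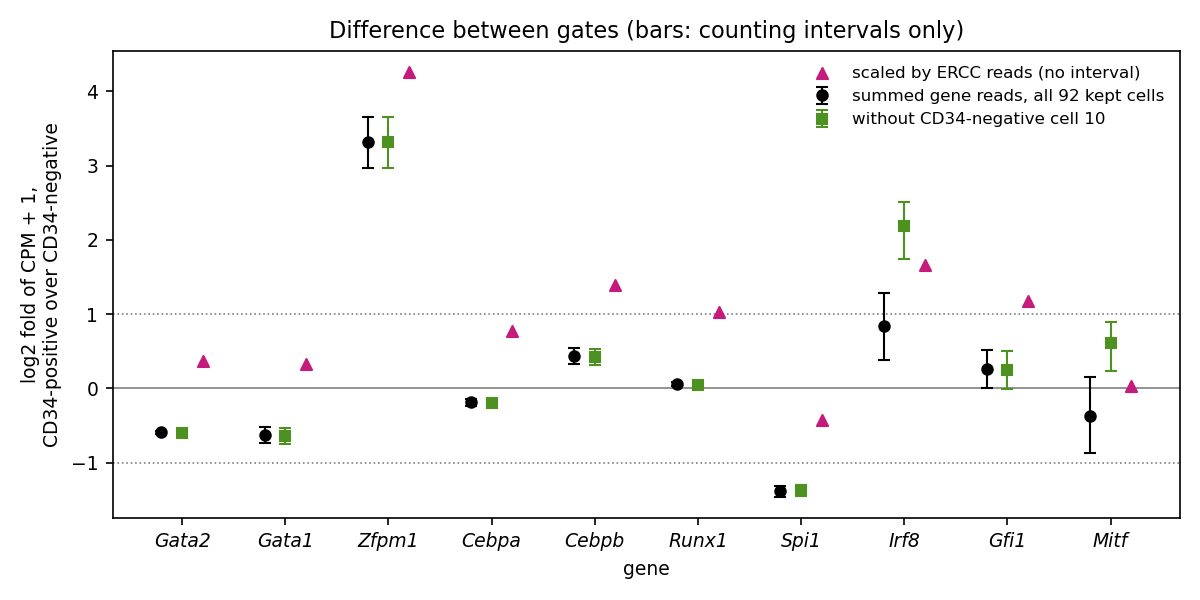
Log2 fold of summed CPM plus 1, CD34-positive over CD34-negative (y axis), per gene, from gene reads of all 92 kept cells (black), without CD34-negative cell 10 (green) and scaled by ERCC reads (triangles); bars are counting intervals and dotted lines mark 1 and -1. Zfpm1 stands at 3.32 and Spi1 at -1.38; Irf8 moves from 0.84 to 2.19 and Mitf from -0.37 to 0.62 when cell 10 is left out, the latter against 0 reads and so set by the pseudocount.

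Gata2 (ENSMUSG00000015053, chr6:88193891-88207032, plus strand, GRCm38) was the most abundant of the 10. Among CD34-negative cells it ranged from 3.80 CPM in cell 10, or 929 CPM in the next lowest cell, to 5556 CPM, with a median of 2825 CPM. Among CD34-positive cells the lowest was 570 CPM, the median 1927 CPM and the highest 3501 CPM. The gates overlapped over most of their range, and the top of the range was made of CD34-negative cells. The summed level was 1919 CPM in the CD34-positive gate against 2889 CPM in the CD34-negative one. This is a log2 fold of -0.59 (-0.61 to -0.57), and of -0.60 without cell 10. The direction turned with ERCC scaling, to 0.38, below the 1.06 of the median gene on that scale. Across cells the means were 2883 ± 1111 and 1928 ± 716 CPM (SD over 46 cells each), a gap smaller than the SD of the CD34-negative gate and larger than that of the CD34-positive one.

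Gata1 (ENSMUSG00000031162, chrX:7959260-7978071, minus strand) varied more widely between cells of the same gate. It ran from 0 to 888 CPM with a median of 39.6 CPM in CD34-negative cells, and from 0 to 471 CPM with a median of 26.4 CPM in CD34-positive cells. CD34-negative cell 45 alone held 16.8% of that gate's 3689 reads. It was detected in 33 of 46 CD34-negative cells (71.7%, 56.5% to 84.0%). Among the CD34-positive cells the count was 38 of 46 (82.6%, 68.6% to 92.2%). Summed levels pointed the other way, with 70.9 CPM in the CD34-positive against 110.3 CPM in the CD34-negative gate. That log2 fold was -0.63 (-0.74 to -0.52), or 0.33 on ERCC scaling. With 10 drawn reads asked of a cell, 20 CD34-negative and 17 CD34-positive cells had Gata1, so the order of the gates in detection depended on that threshold.

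Zfpm1 (ENSMUSG00000049577, chr8:122282141-122337251, plus strand), whose product FOG1 binds GATA1 and GATA2, had the widest gap of the 10. It was detected in 14 of 46 CD34-positive cells (30.4%, 17.7% to 45.8%) but in 3 of 46 from the other gate (6.52%, 1.37% to 17.9%). Its 55 CD34-negative and 765 CD34-positive reads gave 1.64 and 25.5 CPM, a log2 fold of 3.32 (2.98 to 3.66). Most cells of both gates were at 0, so the medians were 0, and the highest cell reached 30.1 CPM among CD34-negative and 246 CPM among CD34-positive cells. The CD34-positive cells with over 100 CPM were cells 4, 28, 10 and 41, at 246, 236, 120 and 114 CPM. Cell 28 alone held 35.6% of the gate's reads, and without it the log2 fold was 2.77. In the CD34-negative gate cell 36 held 49.1% of the reads. Across the alternatives the log2 fold ranged from 1.61, with a pseudocount of 10 CPM, to 4.26 with ERCC scaling.

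**Figure D3:**
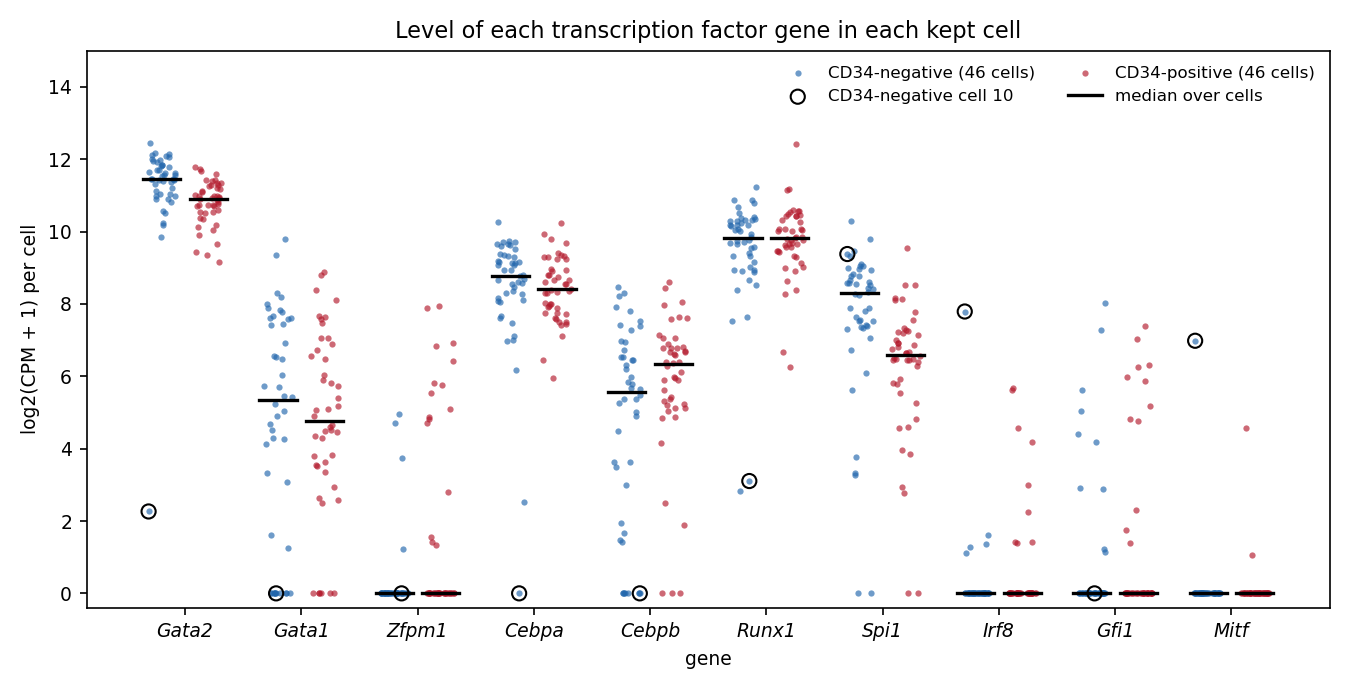
Level of each gene in each kept cell as log2(CPM + 1) (y axis), with CD34-negative cells in blue, CD34-positive cells in red, black lines at the medians and circles around CD34-negative cell 10. Gata2, Cebpa and Runx1 lie well above 0 in nearly all cells of both gates, Gata1 and Cebpb spread from 0 upward, and Zfpm1, Irf8, Gfi1 and Mitf lie at 0 in most cells.

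Cebpa (ENSMUSG00000034957, chr7:35119293-35121928, plus strand), a single-exon gene that encodes the granulocyte factor C/EBPα, was second to Gata2 per kilobase of exon. CD34-negative cells ranged from 0 in cell 10 and 4.72 CPM in cell 18 to 1220 CPM, with a median of 441 CPM. CD34-positive cells ranged from 61.4 to 1201 CPM, with a median of 338 CPM. The ranges were nearly the same apart from those 2 low cells. Summed levels were 474 and 417 CPM, a log2 fold of -0.18 (-0.23 to -0.14) that became 0.78 on ERCC scaling. Cebpa was found in 97.8% (88.5% to 99.9%) and 100% (92.3% to 100%) of cells, and in 45 of 45 CD34-negative cells once cell 10 was left out.

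Cebpb (ENSMUSG00000056501, chr2:167688915-167690418, plus strand), which encodes the related factor C/EBPβ, was detected more often in the CD34-positive gate, in 43 of 46 cells (93.5%, 82.1% to 98.6%). The CD34-negative count was 34 of 46 (73.9%, 58.9% to 85.7%). Before drawing, the gap was smaller, with 38 CD34-negative and 43 CD34-positive cells holding a read of Cebpb. Its levels ran from 0 to 391 CPM with a median of 79.4 CPM in CD34-positive cells, and from 0 to 352 CPM with a median of 46.6 CPM in CD34-negative ones. The gates overlapped over the whole range. The log2 fold was 0.44 (0.33 to 0.54), or 1.39 on ERCC scaling. It fell to 0.23 with TMM factors and 0.09 with scran size factors, and with single cells left out it lay between 0.30 and 0.55. Of the Cebpb exon bases, 20.7% are shared with Tmem189 on the opposite strand, and the strand setting of the counting is not given in the sources used here. Tmem189 had 1302 reads among CD34-negative cells and 1275 among CD34-positive ones.

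Runx1 (ENSMUSG00000022952, chr16:92601466-92826149, minus strand), which encodes a core factor of blood formation, had nearly the same median in both gates. The CD34-negative median was 899 CPM (6.17 to 2407) and the CD34-positive median 900.2 CPM (75.8 to 5531). Only 2 CD34-negative cells lay below 100 CPM, cell 19 at 6.17 CPM and cell 10 at 7.61 CPM, and cell 19 also had no Spi1 read. The highest value belonged to CD34-positive cell 2. The log2 fold was 0.06 (0.03 to 0.09). Without cell 2 it was -0.04, so the direction rested on that cell, and it was 1.03 on ERCC scaling.

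Spi1 (ENSMUSG00000002111, chr2:91082390-91115756, plus strand), the PU.1 gene, was lower in CD34-positive cells. Levels ran from 0 to 1266 CPM with a median of 315 CPM across CD34-negative cells, and from 0 to 741 CPM with a median of 95.6 CPM across CD34-positive cells. The gates overlapped, and the highest cells were CD34-negative ones. Summed levels were 341 and 130.03 CPM, a log2 fold of -1.38 (-1.46 to -1.31). The log2 fold lay below 0 under every alternative tried, between -1.59 with TMM factors and -0.42 with ERCC scaling. Across cells the means were 329 ± 251 and 125 ± 129 CPM (SD over 46 cells each), a gap smaller than the SD of the CD34-negative gate and larger than that of the CD34-positive one. Detection did not separate the gates, at 43 of 46 cells (93.5%, 82.1% to 98.6%) in each. With 10 drawn reads asked of a cell, 41 CD34-negative and 36 CD34-positive cells had Spi1. Cell 10, at 666 CPM, held 1.53% of the CD34-negative reads, and the log2 fold without it was -1.37.

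Irf8 (ENSMUSG00000041515, chr8:120736358-120756694, plus strand), which encodes a monocyte and dendritic cell factor, was detected in few cells. The counts were 6 of 46 CD34-positive cells (13.04%, 4.94% to 26.3%) and 2 of 46 CD34-negative ones (4.35%, 0.531% to 14.8%). Cell 10 held 58 of the 62 CD34-negative reads, at 221 CPM. The other 45 CD34-negative cells had 4 reads in all and at most 2.06 CPM in a cell. The CD34-positive gate had 123 reads, with 50.2 CPM in cell 28, 48.2 CPM in cell 6 and 23.0 CPM in cell 10 of that gate at the top. The log2 fold was 0.84 (0.38 to 1.28) with cell 10 of the CD34-negative gate and 2.19 (1.75 to 2.51) without it. Without CD34-positive cell 28, which held 47.2% of its gate's reads, it was 0.19, so single cells of both gates set its size. The mean of per-cell levels put the CD34-negative gate higher, with a log2 fold of -0.44, and scran size factors gave -0.66.

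Gfi1 (ENSMUSG00000029275, chr5:107716657-107726036, minus strand), which encodes a repressor that supports neutrophil formation, was detected in 10 of 46 CD34-positive cells (21.7%, 10.9% to 36.4%) and in 8 of 46 CD34-negative ones (17.4%, 7.82% to 31.4%). The highest CD34-positive cell was at 168 CPM and the highest CD34-negative cell at 262 CPM, and both medians were 0. A single cell, cell 35, held 48.1% of the CD34-negative reads. The log2 fold was 0.26 (0.003 to 0.52) and ranged from -0.22 without CD34-positive cell 31 to 1.08 without CD34-negative cell 35, so neither its size nor its direction was settled by these cells.

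Mitf (ENSMUSG00000035158, chr6:97807052-98021349, plus strand), the mast cell factor of the list, was nearly absent from the reads. All 33 CD34-negative reads came from cell 10, at 126 CPM. The other 45 CD34-negative cells had 0 reads, which allows up to 0.0904 CPM (3 reads over those cells). The CD34-positive gate had 16 reads or 0.533 CPM, at least 5.89-fold higher than that limit, but 93.8% of them came from cell 32 and the rest was 1 read in cell 19. Mitf was found at the fixed depth in 1 of 46 cells of each gate (2.17%, 0.0550% to 11.5%).

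**Figure D4:**
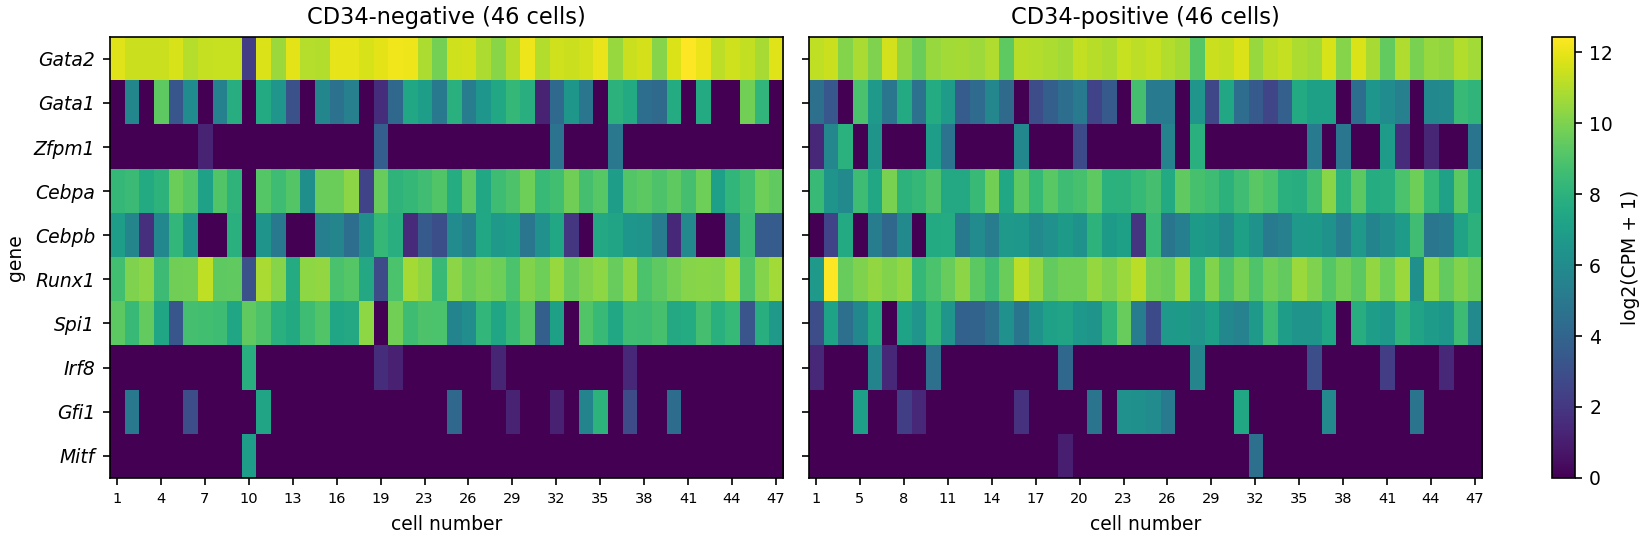
Level of the 10 genes (rows) in each kept cell (columns, in order of cell number), as log2(CPM + 1) from 0 (dark) to the highest value (yellow); CD34-negative cell 20 and CD34-positive cell 3 are left out. Gata2, Cebpa, Runx1 and mostly Spi1 are present together in one cell after another, and CD34-negative cell 10 shows Spi1, Irf8 and Mitf with almost no Gata2, Cebpa or Runx1.

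Levels were also set per kilobase of annotated exon, with the exons of all transcripts of a gene merged. These lengths need not be those of the transcripts expressed or of the annotation used in counting. By CPM alone Runx1 stood above Cebpa and Spi1 in both gates (955, 474 and 341 CPM in CD34-negative cells). Per kilobase, the summed levels of CD34-negative cells were ordered Gata2, Cebpa, Spi1, Runx1, Cebpb, Gata1, Gfi1, Zfpm1, Irf8 and Mitf. The first 4 stood at 535, 180, 127 and 79.4 CPM per kilobase. In CD34-positive cells Spi1 came after Runx1 and Cebpb, with 356 for Gata2, 158 for Cebpa, 82.9 for Runx1, 68.9 for Cebpb and 48.2 CPM per kilobase for Spi1, and Zfpm1 stood ahead of Gfi1. Within single cells Gata2 exceeded Cebpa in 45 of 46 CD34-negative and 44 of 46 CD34-positive cells on this scale. Spi1 exceeded Runx1 in 27 of 46 CD34-negative but 10 of 46 CD34-positive cells. Neighbours further down were not ordered the same way from cell to cell: Gata1 was above Cebpb in 21 and below it in 21 CD34-negative cells, and Cebpb above Spi1 in 25 of 46 CD34-positive cells.

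Windows of 250 bases before an annotated start were taken from RefSeq (GRCm38.p6) to show the DNA upstream of the genes that stood at the centre of the pairs below. Gata2 and Cebpa are shown as the 2 genes present together in nearly every cell. Gata1 and Runx1 are shown because their windows, each before an internal start of a longer gene model, hold the word bound by PU.1, whose gene differed between the gates. Capitals mark matched words, and strands are those of the genes.
Gata2, chr6:88193641-88193890, plus strand: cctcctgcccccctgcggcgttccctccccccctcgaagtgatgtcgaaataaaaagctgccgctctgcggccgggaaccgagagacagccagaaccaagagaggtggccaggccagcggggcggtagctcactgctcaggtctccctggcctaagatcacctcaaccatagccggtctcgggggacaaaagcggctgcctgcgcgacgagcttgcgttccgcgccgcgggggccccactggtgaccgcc
Cebpa, chr7:35119043-35119292, plus strand: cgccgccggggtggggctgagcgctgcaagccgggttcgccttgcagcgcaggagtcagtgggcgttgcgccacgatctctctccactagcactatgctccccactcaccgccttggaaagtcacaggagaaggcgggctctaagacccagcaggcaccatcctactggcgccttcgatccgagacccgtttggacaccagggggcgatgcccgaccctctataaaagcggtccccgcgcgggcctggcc
Gata1, chrX:7967911-7968160, minus strand: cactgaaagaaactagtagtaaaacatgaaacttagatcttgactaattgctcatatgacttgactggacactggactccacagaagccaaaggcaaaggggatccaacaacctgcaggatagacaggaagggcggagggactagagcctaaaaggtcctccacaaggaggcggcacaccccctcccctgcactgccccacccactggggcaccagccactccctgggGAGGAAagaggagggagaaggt
Runx1, chr16:92697330-92697579, minus strand: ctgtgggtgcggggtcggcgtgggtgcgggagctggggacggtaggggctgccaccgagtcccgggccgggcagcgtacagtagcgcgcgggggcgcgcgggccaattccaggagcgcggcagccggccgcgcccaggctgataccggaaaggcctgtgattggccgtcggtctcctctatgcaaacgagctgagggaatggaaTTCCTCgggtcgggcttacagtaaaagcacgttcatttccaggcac
The words searched on both strands were AGATAA or TGATAA for GATA factors, GAGGAA for PU.1, TGTGGT for RUNX factors, TTGCNNAA or TTNCGCAA for C/EBP factors, GAAA repeated after 2 bases for IRF factors and TCACGTG for MITF. They occur in 16.6%, 23.3%, 14.05%, 9.56%, 2.98% and 3.13% of 32851 RefSeq windows of this length. The Gata1 window holds the PU.1 word starting 22 bases before the start, and the Runx1 window holds it, on the other strand, starting 46 bases before the start. The Gata2 and Cebpa windows hold none of the words. No member window left out here holds the PU.1 word, whereas windows of Gfi1, Mitf and another Runx1 start hold other words. With 23.3% of all windows holding the PU.1 word, these matches describe the letters only.

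Of the pairs listed as opposed, those of Gata1 or Gata2 with Cebpa or Spi1 were mostly present in the same cells. Gata2 with Cebpa is also the pair associated with basophils. Runx1 with Gata2 or Spi1, and Cebpa with Spi1, were listed as partners. Gata2, Cebpa, Runx1 and Spi1 were all detected in 42 of 46 CD34-negative cells (91.3%, 79.2% to 97.6%) and in 43 of 46 CD34-positive ones (93.5%, 82.1% to 98.6%). With Gata1 and Cebpb added, all 6 were detected in 25 of 46 CD34-negative cells (54.3%, 39.01% to 69.1%) and 33 of 46 CD34-positive ones (71.7%, 56.5% to 84.0%). With 10 drawn reads asked of each gene, at most 20 CD34-negative and 17 CD34-positive cells could hold all 6, the counts for Gata1. The order of the gates for this combination therefore rests on the threshold of 1 read. Gata2, Cebpa and Runx1 were found together in 45 of 45 CD34-negative cells other than cell 10.

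Gata1 and Spi1, the opposed pair of erythroid and myeloid fate, were detected together in 31 of 46 CD34-negative cells (67.4%, 52.0% to 80.5%). The CD34-positive count was 36 of 46 (78.3%, 63.6% to 89.1%). Spi1 was found in 93.9% of the 33 CD34-negative cells with Gata1 (79.8% to 99.3%) and in 92.3% of the 13 without it (64.0% to 99.8%). In CD34-positive cells these shares were 94.7% of 38 and 87.5% of 8, with the wide interval of 47.3% to 99.7% for the latter. Since 3 cells per gate lacked Spi1, these shares had to lie near their ceiling and say little about how the genes relate. When 10 reads of both were asked, 39.1% of CD34-negative and 34.8% of CD34-positive cells held the pair. Per kilobase Spi1 exceeded Gata1 in 34 of 46 CD34-negative and 30 of 46 CD34-positive cells, and Gata1 exceeded Spi1 in 12 and 15. Their Spearman rho across cells was -0.22 over 46 CD34-negative cells (-0.18 without cell 10) and 0.00 over 46 CD34-positive cells.

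**Figure D5:**
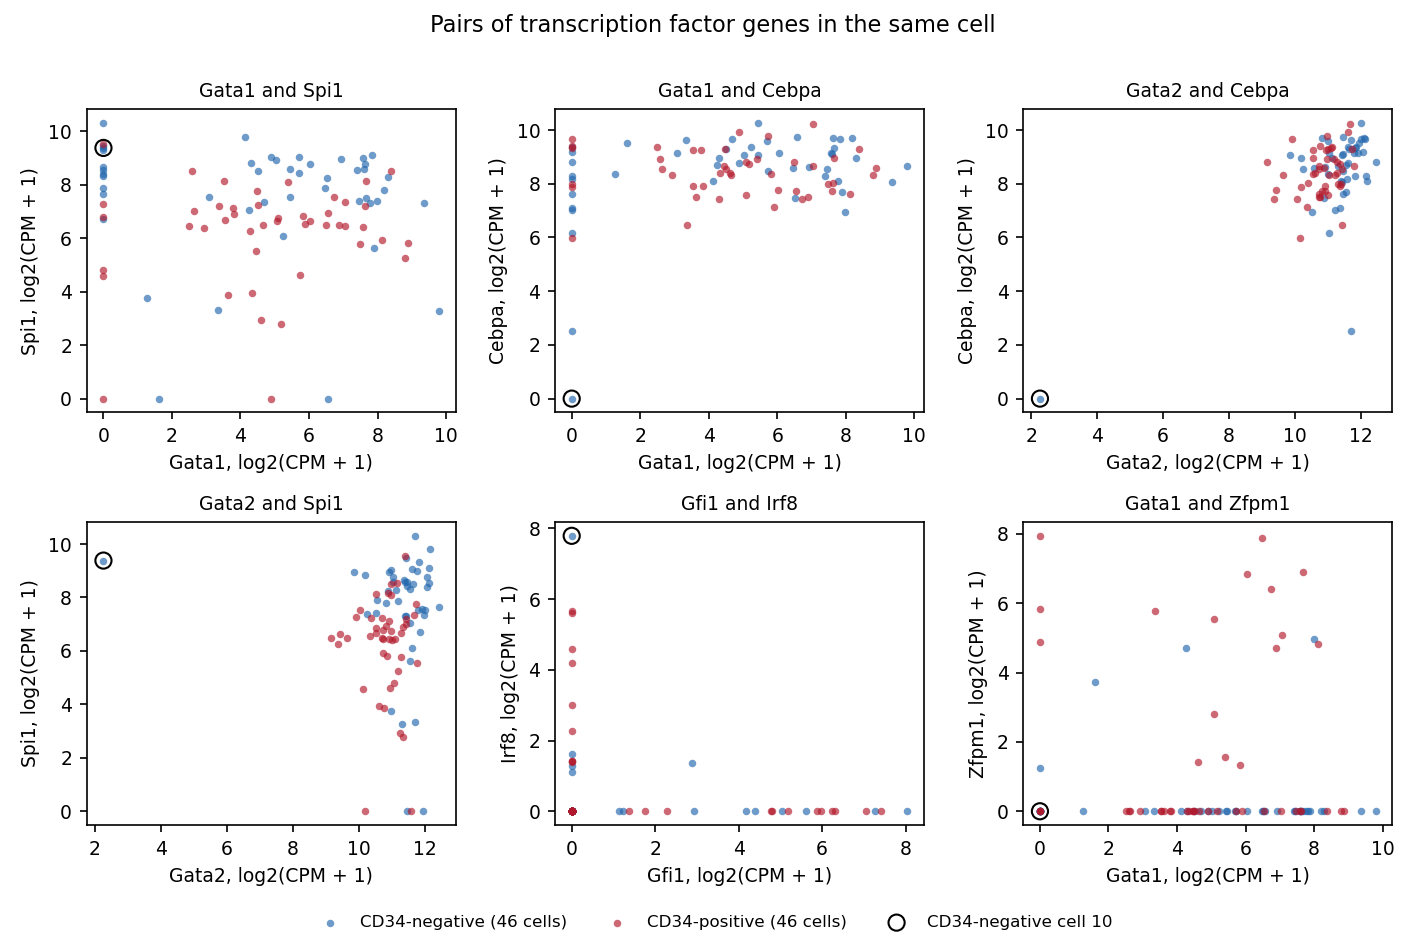
Levels of 6 pairs of genes in the same cell, as log2(CPM + 1) on both axes, for 46 CD34-negative (blue) and 46 CD34-positive (red) cells, with CD34-negative cell 10 circled. Most points for Gata1 with Spi1 and Gata1 with Cebpa lie away from the axes, whereas Gfi1 and Irf8 lie along the axes with 1 cell off both.

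Gata2 and Cebpa were found together in 45 of 46 CD34-negative and 46 of 46 CD34-positive cells. Gata2 was found in every kept cell, so a count of Gata2 with another gene is the count of that gene. The levels of Gata2 and Cebpa had the highest rank correlation among the 4 most widely found genes in both gates. Their rho was 0.38 over CD34-negative cells (0.34 without cell 10) and 0.33 over CD34-positive cells. The Pearson correlation of their log2 levels was 0.69 over CD34-negative cells but 0.13 without cell 10, where Spi1 with Runx1 had 0.41. Over CD34-positive cells it was 0.29, as for Gata2 with Runx1. The levels of 2 genes in a cell are shares of one library, so they share its depth. Gata2 and Spi1 were found together in 43 of 46 cells of each gate, with a rho of -0.03 and 0.03. Every cell with Gata1 also had Cebpa, 33 CD34-negative and 38 CD34-positive cells, and so did all cells without Gata1 apart from cell 10.

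Gfi1 and Irf8 were not found together in any of 46 cells of either gate at the fixed depth, which allows a share of up to 6.52% in each gate by the limit of 3 cells of 46, or 7.71% as the exact upper limit. They were found singly in 8 and 2 CD34-negative and in 10 and 6 CD34-positive cells. Before drawing, 1 CD34-negative cell, cell 37, had reads of both, with 1.59 CPM of Irf8. Both genes were rare, so few joint cells could be seen at this depth, and no avoidance of one by the other can be read from these counts.

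Mitf was found with Cebpa in 0 of 46 CD34-negative and 1 of 46 CD34-positive cells, the CD34-negative cell with Mitf being cell 10. The cofactor Zfpm1 was found with Gata1 in 2 of 46 CD34-negative and 11 of 46 CD34-positive cells. Of 38 CD34-positive cells with Gata1, 28.9% had Zfpm1, and of 8 without it 37.5%. All 3 CD34-negative and all 14 CD34-positive cells with Zfpm1 had Gata2 and Cebpa. Since Gata2 was found in every kept cell and Cebpa in all but CD34-negative cell 10, this says little about Zfpm1. Zfpm1 and Irf8 shared 5 of 46 CD34-positive cells: 35.7% of the 14 with Zfpm1 had Irf8, against 3.12% of the 32 without. Their rho of 0.42 over CD34-positive cells was the highest of the 45 pairs in that gate; both genes are at 0 in most cells.

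Over all 45 pairs the rho across cells was centred near 0, with a median of -0.03 in CD34-negative and -0.01 in CD34-positive cells. It ran from -0.30 to 0.47 in the former and from -0.32 to 0.42 in the latter. The value of 0.47 was that of Irf8 and Mitf and came with cell 10. These coefficients are descriptions over 46 cells, and all values of a cell share its library.

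Relatives and partners of the 10 genes were read from fixed lists, with a log2 fold of 1 as the mark, and paired levels give the CD34-negative gate first. Counts past the mark stand beside the 21.7% of all genes compared at or above 1 and the 10.1% at or below -1, and in lists this short a count of a few genes can lie near those shares. In the list of GATA partners and relatives, 8 of 9 genes had reads in at least 10 cells, 2 were above the mark and 0 below -1, with a median of -0.15. The 2 were Klf1, an erythroid factor (0.75 and 18.6 CPM, log2 fold 3.49), and Gata3 (0.239 and 2.90 CPM, 1.65), of which CD34-positive cell 16 held 73.6% of the reads. Nfe2 had the most reads of that list, with 388 and 332 CPM, followed by Gfi1b in CD34-negative and Ldb1 in CD34-positive cells. In the C/EBP family none of the 4 genes compared passed either mark (median -0.43), and Cebpe, the late granulocyte member, had 0 reads in both gates.

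The RUNX family split, with Runx2 lower in CD34-positive cells (200 and 76.6 CPM, log2 fold -1.37) and the shared partner Cbfb higher (56.8 and 123 CPM, 1.11). Among ETS factors 1 of 6 passed the mark, Etv6 (62.3 and 171 CPM, 1.44), and Ets1 was the most abundant at 604 and 678 CPM. Spib, the closest relative of Spi1, had 2 and 0 reads. In the IRF family 1 of 5 lay below -1, Irf7 (102 and 41.6 CPM, -1.28), with a median of -0.39. In the MiT family, the relatives of MITF, Tfeb was lower in CD34-positive cells (15.5 and 2.50 CPM, -2.24) and Tfe3 had a log2 fold of 0.81.

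Of 15 other lineage regulators compared, 3 were above the mark and 4 below it, with a median of 0.07. Myb, a progenitor factor, was at 44.3 and 253 CPM (log2 fold 2.49), Hoxa9 at 2.21 and 12.7 CPM (2.09) and Myc at 59.5 and 127 CPM (1.08). Bhlhe40, at 32.6 and 3.06 CPM, had the largest fold downward (-3.05), followed by Nfil3 at 359 and 73.7 CPM (-2.27). Zeb2 lay at -1.04 and no longer passed the mark without cell 10, which had 3849 CPM of it, so that 3 genes were then below it. All list medians stand beside the 0.19 of all genes.

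Lists of genes known as targets of these factors differed in direction among themselves. Their counts past the mark also stand beside the 21.7% of all genes at or above 1 and the 10.1% at or below -1. Of 10 basophil targets, 3 were above the mark (Mcpt8, Prss34 and Cpa3, all granule protease genes) and 3 below it (Cd200r3, Il4 and Hdc), with a median of 0.20. Fcer1a and Ms4a2 had log2 folds of 0.08 and 0.43. Of 8 myeloid C/EBP and PU.1 targets compared, 4 were above it (Mpo, Elane, Prtn3 and Ctsg, the primary granule genes) and 2 below it (Itgam and Csf2rb), with a median of 2.21. Without cell 10 these were 5 and 2 of 7 genes, with a median of 3.44. Cd68 (0.16 with all cells) then had too few cells to be compared, and Csf2ra (0.96 with all cells) passed the mark. The 2 medians therefore cover different sets of genes. Mpo was at 125 and 3119 CPM, and Csf2rb, a cytokine receptor chain, at 3398 and 1334 CPM.

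The lists of erythroid GATA1 targets and of mast cell MITF targets were mostly too sparse to compare, with 1 of 6 genes each reaching 10 cells. These were Alas2 (log2 fold -1.07) and Kit (6.55, from 0.179 to 109 CPM). Epor, the erythropoietin receptor gene, had 373 reads in the CD34-positive gate, where 4 cells had a read at the fixed depth, and 0 reads in the other gate. Of the IRF8 and monocyte targets compared, Cx3cr1 and Cst3 were above the mark and Ccr2 below it (493 and 40.5 CPM, -3.57).

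Single cells carried part of these list results, as leaving out each cell in turn, a check added after the values were seen, showed. Of 31 list genes past the mark, 6 fell short of it without 1 cell. These were Gata3 (0.53 without CD34-positive cell 16), Myc (0.52 without CD34-positive cell 1), Irf7 (-0.85 without CD34-negative cell 30), Id1 (-0.94 without CD34-negative cell 1), Zeb2 (-0.84 without CD34-negative cell 21) and Alas2 (-0.67 without CD34-negative cell 13). The fold moved by over 1.5 times for 11 of the 31. Bhlhe40 stood at -4.32 without CD34-positive cell 20, Tfeb at -2.83 without the same cell, and Irf7 at -2.10 and Ccr2 at -4.40 without CD34-positive cell 37. Gata3 is also among the 11. Klf1 reached 4.17 without CD34-negative cell 46, Hoxa9 2.70 without CD34-negative cell 30, Prtn3 5.48 without CD34-negative cell 29, and Mpo and Elane 5.45 and 4.91 without CD34-negative cell 36. Cx3cr1 fell to 2.74 without CD34-positive cell 35.

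Companion genes were set against the members within each gate, as rank correlations over 46 cells that carry no test. Spi1 went with low Mpo among CD34-negative cells, with a rho of -0.48 (-0.46 without cell 10), and -0.24 among CD34-positive cells. Gata2 went with Cd7 at 0.40 in CD34-negative and 0.13 in CD34-positive cells. Runx1 stood at 0.28 with Prss34 in CD34-negative and -0.37 in CD34-positive cells, and the gap between these was not tested. Zfpm1 had a rho of 0.36 with the proliferation gene Mki67 in CD34-positive cells and 0.11 in CD34-negative ones. Technical measures moved with some members too. The share of ambiguous reads had a rho of -0.50 with Spi1 in CD34-positive and -0.36 in CD34-negative cells, and gene reads per cell one of 0.37 with Spi1 in CD34-negative cells. The number of genes found at the fixed depth had a rho of -0.40 with Gata2 and 0.35 with Zfpm1 in CD34-positive cells. In the same cells Cebpb stood at 0.41 with gene reads and -0.37 with the ambiguous share, and Cebpa at -0.36 with the latter. The part of technical measures in the levels of the members was not tested.

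For the 7 members with a read in at least 10 cells of each gate, which leaves out Zfpm1, Irf8 and Mitf, the genes with the most similar levels were sought among 7591 genes, by the mean of the 2 within-gate correlations over 46 cells each. For Gata2 these were Lama5 (mean rho 0.50), Aqp9 (0.45) and Gabbr1 (0.42), all with more CPM in CD34-negative cells, as for Gata2 itself. For Cebpa they were Cd84 (0.51), E330020D12Rik (0.50) and Gm14699 (0.42). For Spi1 they were Ctsd (0.41), Qrich1 (0.41) and Gm12966 (0.41). For Runx1 Upf3b led (0.45), for Cebpb H3f3a (0.40), for Gata1 Mir5136 (0.40) and for Gfi1 Rassf1 (0.46). No member of the 10 was among the top 3 of these 7. These are the highest of many values over few cells, and nothing about function is read from them.

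Markers of other cell types were read to differing extents. Of 8 mast cell markers, 7 had 0 reads in CD34-negative and 4 had 0 in CD34-positive cells, and the sum per cell ranged from 0 to 1.43 and from 0 to 285 CPM. In the CD34-positive gate all Tpsab1 reads came from cell 5 and nearly all Tpsb2 reads from cell 28, the cell with the highest Irf8 of that gate. Of 8 erythroid markers, 4 had 0 reads in each gate, with a highest sum per cell of 83.6 and 361 CPM. Monocyte and dendritic markers summed to a median of 292 CPM per CD34-negative cell without cell 10 and 6.86 CPM per CD34-positive cell; Ccr2, the most abundant, was detected in 38 CD34-negative and 12 CD34-positive cells. Eosinophil markers reached 1496 CPM in CD34-positive cell 34, mostly Prg2, and Siglecf was detected in 16 CD34-negative and 20 CD34-positive cells. Neutrophil markers other than Lcn2, which was detected in 6 CD34-negative and 26 CD34-positive cells, had 15 or fewer reads each in a gate. The megakaryocyte list was read mainly as Itga2b, which basophils also express here (1444 and 930.45 CPM, CD34-negative first), and the B cell list mainly as Cd79b (49.0 and 45.6 CPM). The basophil markers were present throughout, with at least 6127 CPM per CD34-negative cell other than cell 10 and 2785 CPM per CD34-positive cell. The part of other cell types in the member levels was not tested beyond leaving out cell 10.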

How the data were processed

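RNA of single sorted cells was copied with an oligo-dT protocol after Picelli et al., with ERCC spike-in RNA added and no molecular identifiers, per the labels' protocols. What the authors deposited is a single table of whole-number read counts per gene, not normalized, in which each column is a cell. The submitters' processing notes name GSNAP 2015-09-29, HTSeq 0.5.3p3 and the mm10 build; the annotation and the strand setting are not given in the sources used here. Gene reads were 32.4% of the table's total, and the rest, ERCC reads and reads assigned to no gene, stayed out of library sizes. Symbols matched 45143 of 46078 identifiers, and the unmatched ones held 0.281% of gene reads. Positions and exon lengths are from GENCODE M21 (GRCm38).

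A cell needed 50000 gene reads, 1000 genes, under 20% mitochondrial and under 50% ERCC reads, which left 92 of 94. No doublet caller was used on these singly sorted cells. Depth per kept cell, from 262944 to 1154738 gene reads, sets what detection can show. The groups are the sort gates of the labels, and no test was run between them. The members and gene lists were chosen with earlier results of these data known. By rule the text names the 10 members, Cd34, the list members with most reads or the largest fold, 10 companion genes, and the 3 genes most like each member that had a read in at least 10 cells of each gate; genes named beyond these were chosen after their values were seen. Alternatives were other scalings (TMM of edgeR 4.0.16, scran 1.30.0, ERCC), pseudocounts, depths of drawing, thresholds, filters and sets of cells. Calculations were tested on simulated data, the folds only for genes with many reads spread over all cells. Sparse genes such as Zfpm1, Irf8 and Mitf lay outside that test. The work used R 4.3.3 and Python 3.11.15 with pandas 2.3.3, numpy 2.4.6, matplotlib 3.10.9 and scipy 1.17.1.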

Additional observations from a re-analysis of the deposited data

Results flagged for a closer look

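The 2 cells left out for low depth also carried member reads, above the 3 reads that a count of 0 allows. CD34-negative cell 20, with 24565 gene reads, had 19 reads of Gata2 and 4 of Cebpb. CD34-positive cell 3, with 31504 gene reads, had 72 reads of Gata2, 30 of Cebpa, 23 of Runx1, 8 of Cebpb and 5 of Spi1. Both cells entered only the folds recomputed without the cell filter.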

How the results depend on the processing

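Of 130 recomputed member folds, 64 stayed within the counting interval of the reported value, 55 left it, and 11 of genes whose interval lay wholly on one side of 0 turned in sign. ERCC scaling turned Gata2 (0.38), Gata1 (0.33) and Cebpa (0.78). Runx1 turned with TMM factors (-0.15), with scran size factors (-0.042) and without the cell that held most of its reads (-0.037), and with single cells left out it lay between -0.037 and 0.11. Irf8 turned with the mean of per-cell CPM (-0.44) and scran size factors (-0.66). Gfi1 turned among cells numbered 7 to 42 (-0.017), and with single cells left out it lay between -0.22 and 1.08. The interval of Mitf spans 0, and its fold changed sign with ERCC scaling and without cell 10. The median over the 10 members was -0.33 with the mean of per-cell CPM, -0.27 with TMM factors, 0.90 with ERCC scaling and -0.54 with scran size factors. It was 0.13 when each gene lost its richest cell, and between -0.20 and 0.15 with single cells left out. Without CD34-negative cell 10, an alternative chosen after seeing the data, it was 0.15. The cause of these shifts was not tested. All 80 recomputed differences in the detection of single members stayed within their intervals, which says little about their stability. Those without the cell filter could not move, since the left-out cells fell short of the 200000 gene reads drawn. The intervals were also wide enough to hold a change of sign. With 10 reads asked, the Gata1 difference (CD34-positive minus CD34-negative) went from 10.9 to -6.52 percentage points. That of Spi1 went from 0 to -10.9. Of 256 pair shares 24 moved, 21 of them when 10 reads were asked of each gene and 3 without cell 10. Part of the rest could not move: the shares without the cell filter, and CD34-positive shares when only CD34-negative cells were left out.

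No paired analysis was possible because the number in a cell's label only names the cell. Each gate is 1 sample from 3 mice in unknown shares, so gate and mouse cannot be told apart. Reads without molecular identifiers are not independent molecules, and the intervals cover counting error only.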
